A study of Homo sapiens with 12 samples.

Results

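Transcripts of 10 genes that hold back or drive the G1 phase of the cell cycle were examined in SK-N-BE2 and NGP, a pair of established human neuroblastoma cell lines with amplified MYCN. They were taken by symbol from the 19923 protein-coding genes counted in each library, and all 10 were present. They comprise 3 CDK inhibitors of the CIP/KIP family (CDKN1A, CDKN1B and CDKN1C), 3 of the INK4 family (CDKN2A, CDKN2C and CDKN2D), the 3 D cyclins (CCND1, CCND2 and CCND3) and CDK6. Both lines carried the wild-type genotype label, meaning that no engineered change was recorded, and each line stands for the tumour of 1 patient. Cells were kept for 6 days with the solvent DMSO or with STM2457, a small molecule that inhibits METTL3, the methyltransferase that deposits N6-methyladenosine (m6A) on messenger RNA. The dose was 12 µM in SK-N-BE2 and 1 µM in NGP, and each of the 4 groups had 3 replicates.

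D cyclins bind CDK4 and CDK6, and these kinases phosphorylate the retinoblastoma protein RB1, which releases E2F factors and lets cells pass from G1 into S phase. INK4 proteins bind CDK4 and CDK6 and keep D cyclins off them, whereas CIP/KIP proteins bind assembled cyclin-CDK complexes and block mainly those of CDK2. NGP is known for co-amplified MDM2 and CDK4. High CCND1 is a known feature of neuroblastoma.

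The libraries held between 47242379 and 58159937 counted reads. The count headers set the 2 lines apart, perhaps as different sequencing runs, which the labels do not state. Differences between the lines therefore cannot be told apart from those of dose or of a possible run. Nothing in the labels says that replicates came from separate cultures, so p-values measure the spread between these libraries, which may be technical. In NGP, replicate 1 of the DMSO group stood apart, with a chi-square per degree of freedom of 92.9 against replicate 2, compared with 11 between replicates 2 and 3. Of 8 sympathoadrenal markers, 7 were at or above 1 CPM (reads scaled to library size, with TMM factors over all 12 libraries) in each group, and 4 leukocyte markers summed to at most 1.76 CPM. In SK-N-BE2, 3 endothelial markers summed to 7.17 to 11.2 CPM with DMSO and 5.92 to 7.84 CPM with STM2457, against at most 0.862 CPM in NGP. Epithelial and Schwann cell markers summed to at most 4.92 and 2.68 CPM. A list of 4 fibroblast markers moved with treatment, from 106 to 121 CPM summed per library to 192 to 207 CPM in SK-N-BE2, and from 57.2 to 69.9 CPM to 271 to 306 CPM in NGP. All 4 had reads in each group, and the part of this list in the results was not tested. In these bulk libraries fewer cells of a type and less RNA per cell cannot be told apart. METTL3 transcripts, the check on the drug's target, rose in SK-N-BE2 by 0.52 and in NGP by 0.92 in log2 terms (adjusted p 0.000106 and 0.0003, edgeR). That check concerns the transcript alone, since the activity of the enzyme was not measured.

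The brakes CDKN1A and CDKN1B fell in both lines with STM2457, and the brake CDKN2C rose in both. The D cyclins CCND1 and CCND3 rose in SK-N-BE2, while in NGP CCND3 fell and CCND1 did not pass the test. A gene was called when its Benjamini-Hochberg adjusted p in the edgeR quasi-likelihood fit was under 0.05. In SK-N-BE2, 9 of the 10 genes had enough reads to test and 7 were called, against 54.7% of all genes tested. The 3 called higher were CDKN2C, CCND1 and CCND3, against 26.9% of all genes tested, and the 4 called lower were CDKN1A, CDKN1B, CDKN1C and CDKN2D, against 27.8%. In NGP, 9 of the 10 were tested and 4 were called, against 41.7% of all genes. CDKN2C was the 1 called higher, against 19.4%, and CDKN1A, CDKN1B and CCND3 were the 3 called lower, against 22.2%. The treated and control replicates did not overlap for 7 of the 9 genes tested in SK-N-BE2 and 6 of the 9 in NGP, against 62.2% and 54.7% of all genes tested. CDKN1C in SK-N-BE2 and CCND2 in NGP passed the filter on low counts only through their DMSO libraries, where each is high. Their places in the counts and medians given here are therefore no support for a direction. The 9 genes tested in each line had median log2 fold changes of -0.22 (SK-N-BE2) and -0.44 (NGP), beside -0.02 and -0.03 over all genes tested. Both lines changed over much of the transcriptome, so the counts for these few genes lie not far from those backgrounds.

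**Figure D1:**
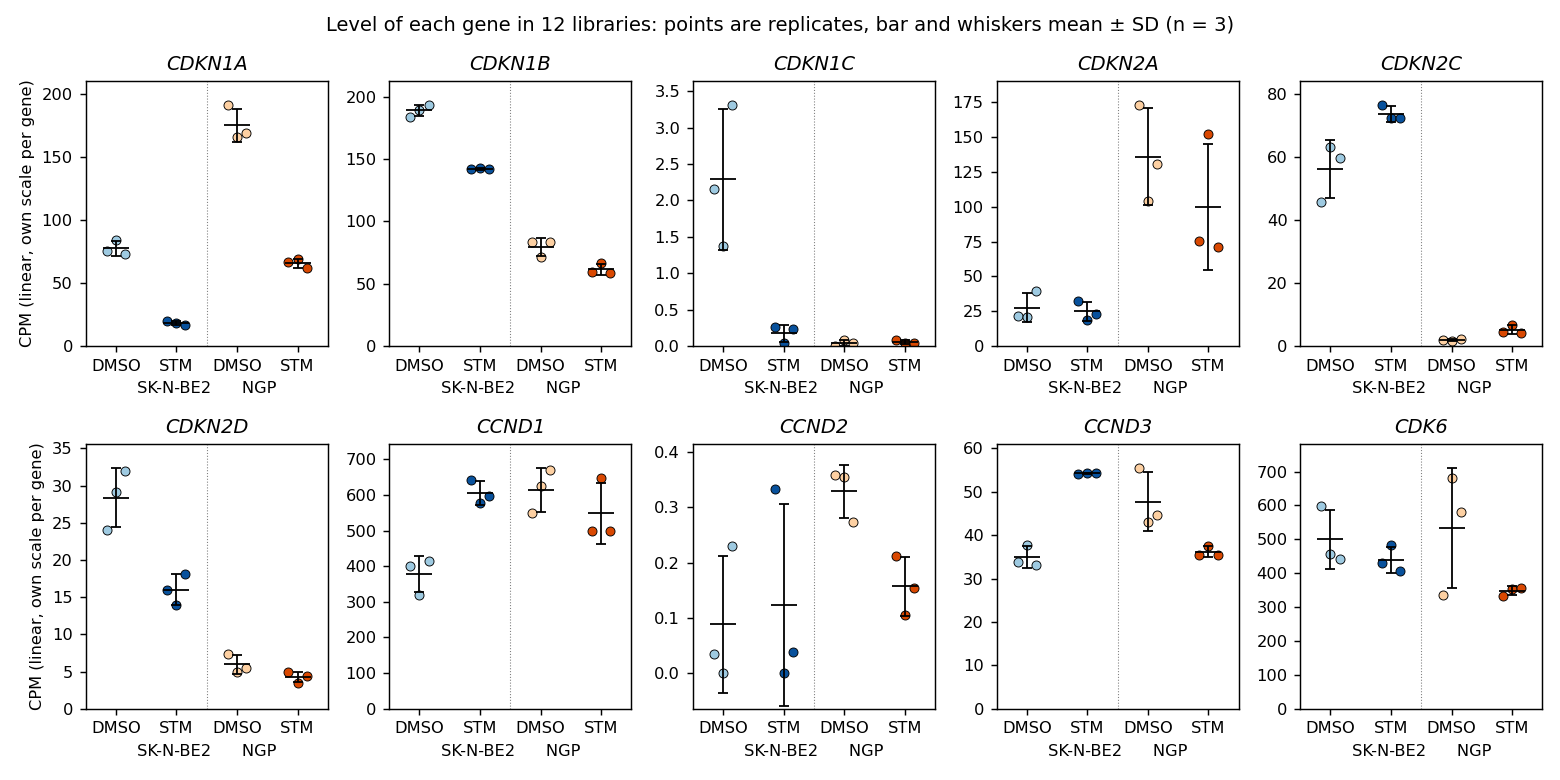
Level of each of the 10 genes in CPM (linear axis, own scale per gene) in the 4 groups, with points for the 3 replicates and the mean ± SD. CDKN1A lies lower with STM2457 in both lines, CDKN2C lies far higher in SK-N-BE2 than in NGP, and CDK6 in NGP with DMSO spans 336 to 682 CPM.

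CDKN1A (chromosome 6, 36676460 to 36687339, plus strand, GRCh38) encodes p21, which binds cyclin-CDK2 complexes. In SK-N-BE2 it measured 75.4, 84.1 and 72.8 CPM in replicates 1 to 3 with DMSO and 19.9, 18 and 17 CPM with STM2457. In NGP it measured 191, 166 and 169 CPM with DMSO and 66.7, 68.8 and 61.8 CPM with STM2457. Every treated library lay below every control library of its line, and the 4 groups did not overlap one another at all. From high to low they ran NGP with DMSO, SK-N-BE2 with DMSO, NGP with STM2457 and SK-N-BE2 with STM2457. The level fell 4.34-fold in SK-N-BE2, from 77.4 ± 5.89 to 18.3 ± 1.48 CPM (SD, n = 3), or -2.12 in log2 terms (adjusted p 2.79e-09 by edgeR, SE 0.10). It fell 2.66-fold in NGP, from 175 ± 13.3 to 65.7 ± 3.59 CPM, or -1.41 in log2 terms (adjusted p 3.13e-05 by edgeR, SE 0.10). The fall was larger in SK-N-BE2, and the contrast of the responses over all 12 libraries was -0.69 (adjusted p 0.00149 by edgeR, SE 0.13). Without treatment SK-N-BE2 held 2.27-fold less CDKN1A than NGP (edgeR adjusted p 4.77e-08). MDM2, the ubiquitin ligase gene co-amplified with CDK4 in NGP, was not called in either line, at log2 fold changes of -0.03 and 0.03 (adjusted p 0.779 and 0.837, edgeR).

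CDKN1B (chromosome 12, 12715058 to 12722369, plus strand) encodes p27, the inhibitor that accumulates in quiescent cells. With DMSO it measured 184, 189 and 193 CPM in SK-N-BE2, and with STM2457 142, 143 and 142 CPM. In NGP the values were 83.8, 71.4 and 83.2 CPM with DMSO and 59.7, 66.7 and 58.7 CPM with STM2457. The groups again did not overlap, and both SK-N-BE2 groups lay above both NGP groups. The fall was smaller than that of CDKN1A, with log2 fold changes in SK-N-BE2 of -0.45 (adjusted p 0.000228 by edgeR, SE 0.07) and in NGP of -0.36 (adjusted p 0.0272 by edgeR, SE 0.11). The NGP call was lost without DMSO replicate 3, STM2457 replicate 1 or STM2457 replicate 3 (edgeR adjusted p up to 0.123). The responses differed by -0.07 (adjusted p 0.702 by edgeR, SE 0.12), which does not show that they were equal. CDKN1B was 2.38-fold higher in untreated SK-N-BE2 than in untreated NGP (edgeR adjusted p 1.03e-08).

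CDKN1C (chromosome 11, 2883213 to 2885773, minus strand) encodes p57, an imprinted inhibitor, and was the scarcest of the 6 inhibitors. It measured 2.16, 1.38 and 3.31 CPM in SK-N-BE2 with DMSO and 0.259, 0.0392 and 0.23 CPM with STM2457, which correspond to 364 and 28 reads over each group. Each treated library lay below each control library there. The log2 fold change was -3.71 (adjusted p 2.92e-05 by edgeR, SE 0.49). CDKN1C passed the filter on low counts only through the DMSO libraries of SK-N-BE2, where it is high, so its place among the genes called is no support for a direction. With no filter the value was -3.70 (adjusted p 2.25e-07, edgeR). In NGP the 2 groups held 6 and 8 reads, too few to test. The contrast of the responses gave -4.15 (adjusted p 0.0221 by edgeR, SE 1.26) and rests on those few NGP reads, and its call was lost without NGP STM2457 replicate 1 (-3.73, edgeR adjusted p 0.105).

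CDKN2A (chromosome 9, 21967753 to 21995301, minus strand) encodes both the INK4 protein p16 and, from another reading frame, ARF, which restrains MDM2. Counts per gene do not tell the 2 products apart, and 15.4% of its exon length overlaps the other-strand noncoding CDKN2B-AS1, so its value is uncertain. In SK-N-BE2 it measured 21.8, 21.1 and 39.5 CPM with DMSO and 32.4, 18.9 and 23.3 CPM with STM2457. In NGP it measured 173, 104 and 131 CPM with DMSO and 75.7, 152 and 71.3 CPM with STM2457. Treated and control libraries overlapped in both lines, while every NGP library lay above every SK-N-BE2 library. The log2 fold change was -0.18 in SK-N-BE2 (adjusted p 0.52 by edgeR, SE 0.22) and -0.44 in NGP (adjusted p 0.264 by edgeR, SE 0.30). Leaving out NGP STM2457 replicate 2, the high library of its group, gave -0.86 (edgeR adjusted p 0.0217). Between the untreated lines CDKN2A was 4.95-fold lower in SK-N-BE2 (edgeR adjusted p 1.86e-05).

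CDKN2C (chromosome 1, 50960745 to 50974634, plus strand) encodes p18, and 20.4% of its exon length overlaps a noncoding gene on the other strand. Its levels lay far apart between the lines. SK-N-BE2 held 45.9, 63.2 and 59.8 CPM with DMSO and 76.6, 72.4 and 72.5 CPM with STM2457. NGP held 2.03, 1.58 and 2.36 CPM with DMSO and 4.57, 6.85 and 4.26 CPM with STM2457. No group overlapped another, and STM2457 lay above DMSO within each line. The rise was small in SK-N-BE2, at 0.35 in log2 terms (adjusted p 0.0143 by edgeR, SE 0.11), and that call was lost without STM2457 replicate 1 (edgeR adjusted p 0.0534). In NGP the log2 fold change was 1.40 (adjusted p 0.00281 by edgeR, SE 0.25), from 1.99 ± 0.394 to 5.23 ± 1.41 CPM (SD, n = 3). The response was smaller in SK-N-BE2, by a difference of -1.03 (adjusted p 0.00852 by edgeR, SE 0.26). Even so, treated NGP cells stayed far below untreated SK-N-BE2 cells, which held 28.2-fold more than untreated NGP cells (edgeR adjusted p 5.8e-11).

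CDKN2D (chromosome 19, 10566460 to 10569059, minus strand) encodes p19, the INK4 protein that varies with the cell cycle. In SK-N-BE2 it measured 24, 29.1 and 31.9 CPM with DMSO and 16, 13.9 and 18.1 CPM with STM2457. In NGP it measured 7.4, 4.99 and 5.51 CPM with DMSO and 4.89, 3.53 and 4.4 CPM with STM2457. Treated libraries lay below controls in both lines, and SK-N-BE2 lay above NGP throughout. The log2 fold change was -0.86 in SK-N-BE2 (adjusted p 8.57e-05 by edgeR, SE 0.13) and -0.48 in NGP (SE 0.21), which did not pass (edgeR adjusted p 0.098). The difference between the responses was -0.37 (adjusted p 0.282 by edgeR, SE 0.25). CDKN2B, which encodes p15 and lies next to CDKN2A, was scarce in each group, and it fell in SK-N-BE2 from 1.53 ± 0.168 to 0.862 ± 0.184 CPM (edgeR adjusted p 0.0186). In NGP it measured 2.9 ± 0.161 and 2.66 ± 0.368 CPM (edgeR adjusted p 0.642).

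Promoter sequence is shown for the 3 inhibitors called with the same sign in both lines, so that the letters upstream of their starts can be compared. Each stretch is read 5′ to 3′ on the plus strand of GRCh38.p14 from the RefSeq promoter table and ends just before a listed start, except for CDKN1A, where it stops before an exon listed in the count files. CDKN1A is shown over 194 bases (chr6:36678464-36678657), CDKN1B over 250 (chr12:12717118-12717367) and CDKN2C over 250 at 1 of its 3 listed starts (chr1:50969995-50970244). Capitals mark GGGCGG, the box bound by SP1, and CCAAT. The full 250 bases before the CDKN1A start held 4 of these boxes, of which 2 are shown. For CDKN2C the stretch shown held 1 box, while the start after chr1:50968456-50968705 had 5 and the start after chr1:50960495-50960744 had 0.
CDKN1A: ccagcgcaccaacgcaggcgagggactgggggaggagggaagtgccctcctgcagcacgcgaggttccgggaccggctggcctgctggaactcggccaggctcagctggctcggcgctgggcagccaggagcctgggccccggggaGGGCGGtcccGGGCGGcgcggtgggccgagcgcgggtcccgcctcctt
CDKN1B: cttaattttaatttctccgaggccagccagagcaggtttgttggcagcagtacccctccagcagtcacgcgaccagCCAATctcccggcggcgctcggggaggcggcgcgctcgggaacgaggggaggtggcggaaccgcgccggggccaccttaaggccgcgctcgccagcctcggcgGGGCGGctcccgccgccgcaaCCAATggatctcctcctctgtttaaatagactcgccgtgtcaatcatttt
CDKN2C: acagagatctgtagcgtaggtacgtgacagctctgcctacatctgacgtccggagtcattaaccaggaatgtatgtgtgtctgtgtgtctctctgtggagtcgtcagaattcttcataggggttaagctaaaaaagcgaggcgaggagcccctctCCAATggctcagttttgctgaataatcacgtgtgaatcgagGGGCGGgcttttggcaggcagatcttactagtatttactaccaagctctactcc
The table held 13 starts for 7 of the 10 genes, and it lacked CCND1, CCND2 and CDKN1C. Over the 250 bases before each start and on both strands, GGGCGG occurred at 9 of the 13 starts (69.2%), against 42.6% of the 35116 promoters in the table, and each of the 7 genes had it at a start. CCAAT occurred at 5 of the 13 (38.5%), against 32% of all promoters. The E2F letters TTTCCCGC or TTTGGCGC, found in 1.93% of all promoters, and TATAAA, found in 10.7%, were not among these windows. A match is a description of the letters and says nothing of binding.

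CCND1 (chromosome 11, 69641156 to 69654474, plus strand) encodes cyclin D1, the partner that activates CDK4 and CDK6. In SK-N-BE2 it measured 401, 319 and 414 CPM with DMSO and 643, 576 and 596 CPM with STM2457. In NGP it measured 548, 626 and 669.7 CPM with DMSO and 499.9, 646 and 498 CPM with STM2457. Untreated SK-N-BE2 was the low group, below all other libraries, while treated SK-N-BE2 overlapped both NGP groups. CCND1 rose 1.56-fold in SK-N-BE2, at a log2 fold change of 0.64 (adjusted p 0.000185 by edgeR, SE 0.10). In NGP the treated and control libraries overlapped, at -0.16 (adjusted p 0.359 by edgeR, SE 0.13). The responses differed by 0.82 (adjusted p 0.0037 by edgeR, SE 0.18). LTO1, a coding gene on the other strand, shares 10.4% of the exon length of CCND1, and reads there could not be assigned without strand, so the level is uncertain to that extent.

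CCND3 (chromosome 6, 41934933 to 42050357, minus strand) encodes cyclin D3 and has pseudogenes named for it (CCND3P1 and CCND3P2) that could take reads. SK-N-BE2 held 33.8, 37.8 and 33.1 CPM with DMSO and 54, 54.3 and 54.3 CPM with STM2457. NGP held 55.5, 43 and 44.7 CPM with DMSO and 35.5, 37.6 and 35.5 CPM with STM2457. The lines moved in opposite directions, so that treated SK-N-BE2 overlapped untreated NGP and treated NGP overlapped untreated SK-N-BE2. The log2 fold change was 0.60 in SK-N-BE2 (adjusted p 6.61e-05 by edgeR, SE 0.09) and -0.40 in NGP (adjusted p 0.0313 by edgeR, SE 0.12). In NGP the call was lost without DMSO replicate 3 or any 1 of the STM2457 replicates (edgeR adjusted p up to 0.114). The difference between the responses, 1.01 (adjusted p 0.000178 by edgeR, SE 0.15), was called in each of the 12 fits that left out 1 library.

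CCND2 (chromosome 12, 4273762 to 4305353, plus strand), which encodes cyclin D2, was near the limit of detection. The 3 libraries of each group held 14 reads in SK-N-BE2 with DMSO, 20 with STM2457, 50 in NGP with DMSO and 23 with STM2457. NGP measured 0.358, 0.355 and 0.273 CPM with DMSO and 0.212, 0.105 and 0.155 CPM with STM2457, and these did not overlap. The log2 fold change of -1.05 (SE 0.46) did not pass (edgeR adjusted p 0.101), and SK-N-BE2 had too few reads to test. In NGP, CCND2 passed the filter on low counts only through the DMSO libraries, where it is high. The lack of overlap there is thus no support for a direction, and with no filter the edgeR adjusted p was 0.216. A coding gene on the same strand shares 13.9% of its exon length, which makes so low a count more uncertain.

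CDK6 (chromosome 7, 92604921 to 92836594, minus strand), the kinase partner of the D cyclins, was not called in either line. In SK-N-BE2 it measured 599, 456 and 443 CPM with DMSO and 429.8, 482 and 406 CPM with STM2457. In NGP it measured 336, 682 and 582 CPM with DMSO and 332, 353 and 357 CPM with STM2457. The 3 treated NGP libraries lay close together, beside 1 control library at their level and 2 well above it. The low control was NGP DMSO replicate 1, the library that stood apart. The log2 fold change was -0.22 in SK-N-BE2 (adjusted p 0.124 by edgeR, SE 0.12) and -0.61 in NGP (adjusted p 0.0543 by edgeR, SE 0.22). Without NGP DMSO replicate 1 the NGP value was -0.86 (edgeR adjusted p 1.61e-05), and the response of SK-N-BE2 minus that of NGP was then 0.63 (edgeR adjusted p 0.00515), against 0.40 with all libraries (adjusted p 0.291 by edgeR, SE 0.27). CDK4, the other kinase that D cyclins activate, was not called in either line, at log2 fold changes of 0.14 and 0.11 (adjusted p 0.215 and 0.439, edgeR). It was 15.8-fold higher in untreated NGP, at 1869 ± 212 CPM, than in untreated SK-N-BE2, at 118 ± 12.7 CPM (SD, n = 3, edgeR adjusted p 1.85e-12). TSPAN31, a coding gene on the other strand, shares 44.2% of the exon length of CDK4, so its level is uncertain.

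**Figure D2:**
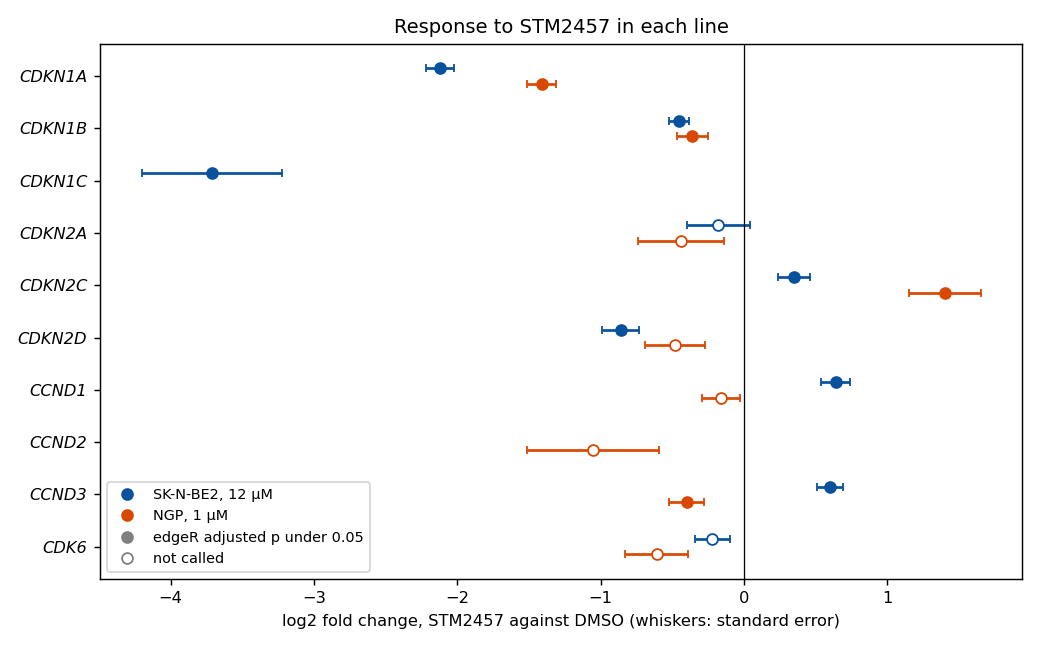
Log2 fold change (STM2457 against DMSO) of each gene in SK-N-BE2 and NGP, with bars of 1 standard error, filled where the edgeR adjusted p was under 0.05. CDKN1A and CDKN1B lie below 0 and CDKN2C above 0 in both lines, while CCND3 lies at 0.60 for SK-N-BE2 and -0.40 for NGP.

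The responses of the 2 lines were set against each other for all 10 genes, and 5 differed, against 30.9% of all genes tested. CCND1 and CCND3 had the higher response in SK-N-BE2, against 17.0% of all genes, and CDKN1A, CDKN1C and CDKN2C the lower, against 13.9%. CDKN1C entered that fit only through its high group, SK-N-BE2 with DMSO, so its place in this count is no support. Of the 8 genes tested in both lines, CDKN2C was called higher in both, against 10.5% of the 12952 genes tested in both, and CDKN1A and CDKN1B lower in both, against 10.8%. CCND3 was called in opposite directions, against 4.96% of all such genes. For the 10 genes the median difference between the responses was 0.10 on the log2 scale, beside 0.02 over all genes tested.

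The untreated lines already differed in most of these genes. In DMSO, 8 of the 10 were called between SK-N-BE2 and NGP, against 71.1% of all genes tested. CDKN1B, CDKN1C, CDKN2C and CDKN2D were higher in SK-N-BE2, against 35.7%, and CDKN1A, CDKN2A, CCND1 and CCND3 were lower there, against 35.4%. CCND1 was 1.63-fold and CCND3 1.37-fold higher in NGP (adjusted p 0.000204 and 0.00132, edgeR). CDKN2D was 4.75-fold higher in SK-N-BE2 (edgeR adjusted p 4.15e-08). CDKN1C stood at 2.29 ± 0.973 CPM in SK-N-BE2 and rested on 6 reads in NGP, a log2 difference of 5.77 (adjusted p 3.97e-06 by edgeR, SE 0.70). It entered that fit through its high group too, so its place in the count is no support, and with no filter the value was again 5.77 (adjusted p 8.6e-07, edgeR). CDK6 measured 499.6 ± 86.7 CPM in SK-N-BE2 and 533 ± 178 CPM in NGP and was not called (log2 difference -0.09, SE 0.19, edgeR adjusted p 0.677). CCND2 did not pass (edgeR adjusted p 0.101).

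Levels of different genes were compared as TPM, which divides each count by the exon length in the files and scales every library to the same sum. CCND1 made up most of the D cyclin TPM in each group, from 92.8% ± 1.47 in SK-N-BE2 with DMSO to 94.8% ± 0.565 in NGP with STM2457 (SD, n = 3). CCND3 held most of the remainder, between 5.2% ± 0.558 and 7.16% ± 1.48, and CCND2 at most 0.0338%. Cyclin D1 transcripts thus dominated the family in both lines, with or without the inhibitor.

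Among the CDK inhibitors the leading gene depended on the line. In SK-N-BE2, CDKN1B made up 51.3% ± 2.16 of the inhibitor TPM with DMSO and 54.2% ± 1.84 with STM2457. In NGP with DMSO, CDKN1A led at 46.4% ± 2.7, CDKN1B followed at 25% ± 1.62 and CDKN2A at 24.9% ± 3.3. With STM2457 the 3 leading genes lay close in NGP, where CDKN1B stood at 33.3% ± 3.36, CDKN2A at 30.5% ± 8.03 and CDKN1A at 29.9% ± 3.77. As shares of reads, with no length scaling, CDKN2A came first there at 40.8% ± 8.86, and CDKN1A and CDKN1B followed at 28.5% ± 4.67 and 26.6% ± 3.71. The share of CDKN1A in SK-N-BE2 went from 17.7% ± 1.58 to 5.86% ± 0.378, and that of CDKN2C from 12.9% ± 1.44 to 23.9% ± 0.392. CDKN2C held only 0.53% ± 0.0938 in NGP with DMSO and 2.34% ± 0.2 with STM2457. Of the TPM of CDK4 and CDK6 together, CDK6 held 51.4% ± 5.51 in SK-N-BE2 with DMSO and 6.87% ± 2.78 in NGP with DMSO. With STM2457 the shares were 45.3% ± 3.04 and 4.17% ± 0.137. TSPAN31 on the other strand shares 44.2% of the exon length of CDK4, so the split between CDK4 and CDK6 is uncertain. In SK-N-BE2 it does not show which kinase led. All these shares describe the libraries and were not tested.

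**Figure D3:**
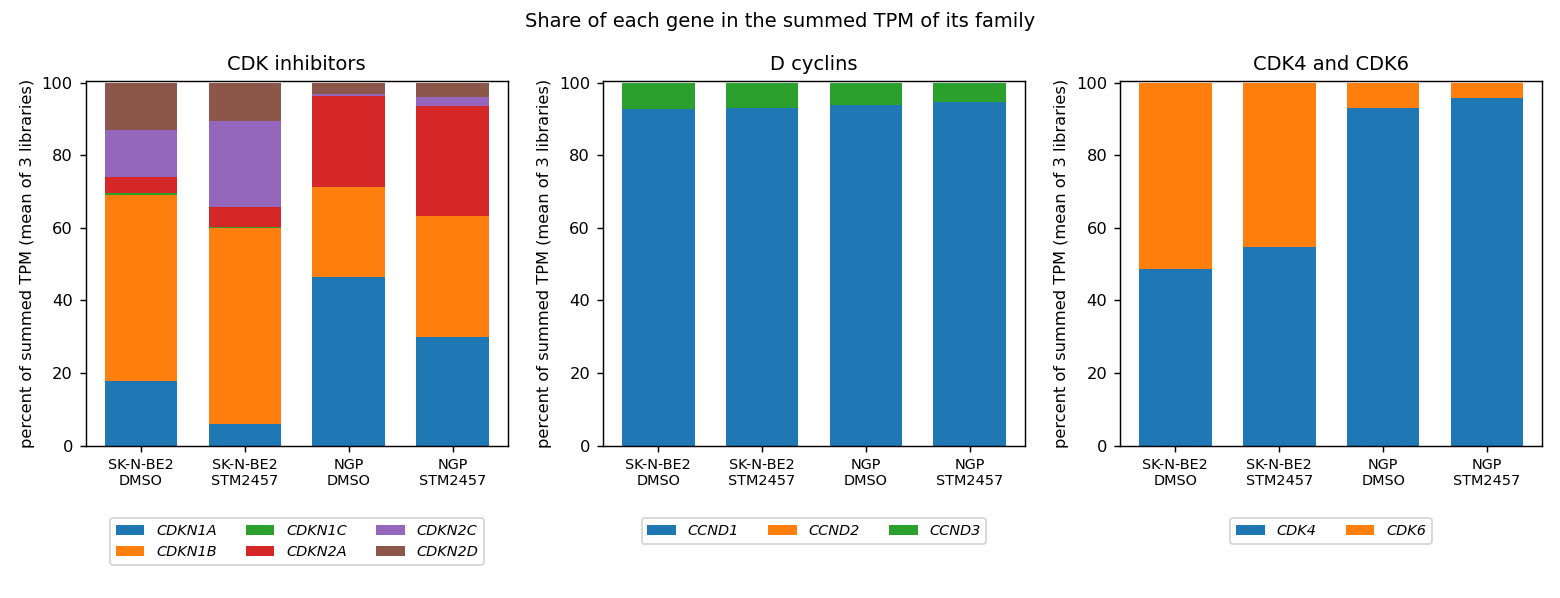
Share of each gene in the summed TPM of the CDK inhibitors, of the D cyclins and of CDK4 with CDK6, as stacked bars of group means (percent, 3 replicates per group). CDKN1B is the widest inhibitor segment in SK-N-BE2 (51.3% and 54.2%), CDKN1A in NGP with DMSO (46.4%), and CCND1 fills at least 92.8% of the D cyclins in each group.

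The summed TPM of the 6 inhibitors over that of the 3 D cyclins, a ratio chosen after the values were seen, is given as a description. It was 1.48, 2 and 1.62 in SK-N-BE2 with DMSO and 0.731, 0.761 and 0.761 with STM2457. In NGP it was 1.13, 0.793 and 0.826 with DMSO and 0.607, 0.62 and 0.578 with STM2457. The treated libraries lay below the controls of their line in both cases. The components behind it differed. In SK-N-BE2 the inhibitor sum went from 437 ± 29.4 to 338 ± 16.4 TPM and the D cyclin sum from 259.6 ± 28.6 to 451 ± 31.6 TPM. In NGP the inhibitor sum went from 508 ± 17.1 to 264 ± 48.1 TPM, while the D cyclin sum, at 452, 617 and 634 TPM with DMSO and 394, 514 and 403 TPM with STM2457, overlapped between the groups. The highest NGP ratio came from DMSO replicate 1.

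**Figure D4:**
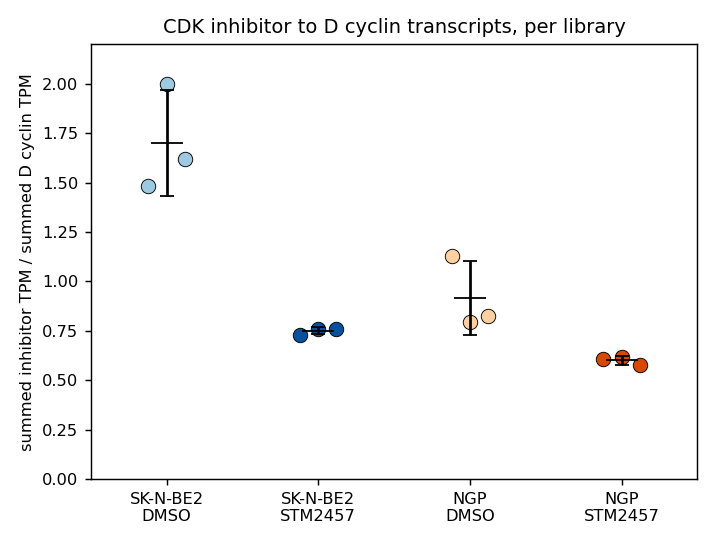
Summed TPM of the 6 CDK inhibitors over the summed TPM of the 3 D cyclins in each of the 12 libraries, with group means (linear axis from 0). The SK-N-BE2 controls lie between 1.48 and 2 and the treated libraries between 0.731 and 0.761, and in NGP the controls lie between 0.793 and 1.13 and the treated libraries between 0.578 and 0.62.

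Other genes of the G1 pathway were read from lists, whose counts stand beside 26.9% called higher and 27.8% lower of all genes tested for SK-N-BE2, and 19.4% and 22.2% for NGP. Of 9 other CDKs, cyclins and activators, 6 rose, 2 fell and 1 did not pass in SK-N-BE2 (median log2 fold change 0.56), and 4 rose and 5 did not pass in NGP (median 0.41). CDK2, the S-phase kinase that CIP/KIP proteins block, rose by 1.11 and 1.19 on the log2 scale (adjusted p 6.32e-07 and 7.86e-05, edgeR). Its partner CCNE2 rose in SK-N-BE2 by 1.89 and in NGP by 0.92 (adjusted p 4.31e-07 and 0.00624, edgeR). Another of its partners, CCNE1, rose in SK-N-BE2 by 0.77 and in NGP by 1.08 (adjusted p 3.76e-05 and 0.00146, edgeR), and that difference was not called (-0.30, edgeR adjusted p 0.285). The rise of CCNE2 was larger in SK-N-BE2 (difference 0.98, edgeR adjusted p 0.012), and the responses of CDK2 were not called different (-0.07, edgeR adjusted p 0.736). Genes on the other strand share 37.1% of the exon length of CCNE2 and 16.8% of that of CDK2, so both values are uncertain.

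The pocket proteins and E2F factors, which act downstream of the D cyclins, were counted in each line. In SK-N-BE2 9 of 13 rose and 4 did not pass (median 0.53), while in NGP 3 rose, 2 fell and 8 did not pass (median -0.02), which lies near the NGP background of 19.4% higher and 22.2% lower. In SK-N-BE2 the background was 26.9% higher. E2F1 rose by 1.61 in SK-N-BE2 (edgeR adjusted p 5.93e-08) and stood at -0.01 in NGP (edgeR adjusted p 0.968, SE 0.20). That difference was called (edgeR adjusted p 0.000253). The NGP controls for E2F1 were scattered, at 181 ± 58.6 CPM beside 179.5 ± 10.4 CPM with STM2457 (SD, n = 3), so a smaller change there is not excluded. E2F2 rose by 1.66 in SK-N-BE2 (edgeR adjusted p 1.3e-08) and by 0.29 in NGP (edgeR adjusted p 0.0354). The repressor E2F7 rose in SK-N-BE2 by 1.03 and in NGP by 1.39 (adjusted p 0.000162 and 0.000644, edgeR), and that difference was not called (-0.35, edgeR adjusted p 0.326). RB1, the pocket protein that D cyclin kinases phosphorylate, rose by 0.42 in SK-N-BE2 and fell by 0.56 in NGP (adjusted p 0.00686 and 0.0273, edgeR). These are the same directions as those of CCND3. In NGP, RB1 measured 73.5, 104 and 118 CPM with DMSO and 70.8, 59.9 and 68.7 CPM with STM2457. The lowest control, near the treated libraries, was DMSO replicate 1, the library that stood apart.

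Of 12 ubiquitin ligase genes that turn over D cyclins and CDK inhibitors, 5 rose, 3 fell and 4 did not pass in SK-N-BE2 (median 0.10). In NGP 11 were tested, of which 4 rose, 1 fell and 6 did not pass (median 0.01). The fall count in SK-N-BE2 lies near its background of 27.8%, and the other backgrounds were 26.9% higher there and 19.4% higher and 22.2% lower for NGP. SKP2, which marks the p27 protein for degradation, fell by 0.47 in SK-N-BE2 and rose by 0.35 in NGP (adjusted p 0.00038 and 0.0284, edgeR). The p27 protein was not measured, and the fall of CDKN1B in both lines concerns its transcripts alone. DTL, part of the ligase that degrades p21 in S phase, rose in both lines, by 0.61 and 0.92 (adjusted p 0.000135 and 0.000258, edgeR). Of 12 transcriptional regulators of the inhibitors and D cyclins, 2 rose, 4 fell and 6 did not pass in SK-N-BE2 (median -0.11), and 4 fell and 8 did not pass in NGP (median -0.08). The SK-N-BE2 counts lie near the backgrounds of 26.9% higher and 27.8% lower, and the NGP backgrounds were 19.4% and 22.2%. FOXO3, a factor that can activate CDKN1A and CDKN1B and has a close copy in FOXO3B that could take reads, fell by 0.51 in SK-N-BE2 and by 1.49 in NGP (adjusted p 9.37e-05 and 0.000101, edgeR). EZH2, a histone methyltransferase that silences CDKN2A in many cells, rose by 0.52 in SK-N-BE2 (edgeR adjusted p 0.000246) and stood at -0.05 in NGP (edgeR adjusted p 0.687). Beside all of these, each of 5 proliferation genes rose in both lines, with medians of 0.87 and 0.75. Among them MKI67 rose by 0.87 and 1.43 (adjusted p 4.06e-05 and 0.000129, edgeR) and PCNA by 1.17 and 0.75 (adjusted p 2.75e-07 and 0.00471, edgeR). Their part in the changes of the inhibitors and D cyclins was not tested.

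**Figure D5:**
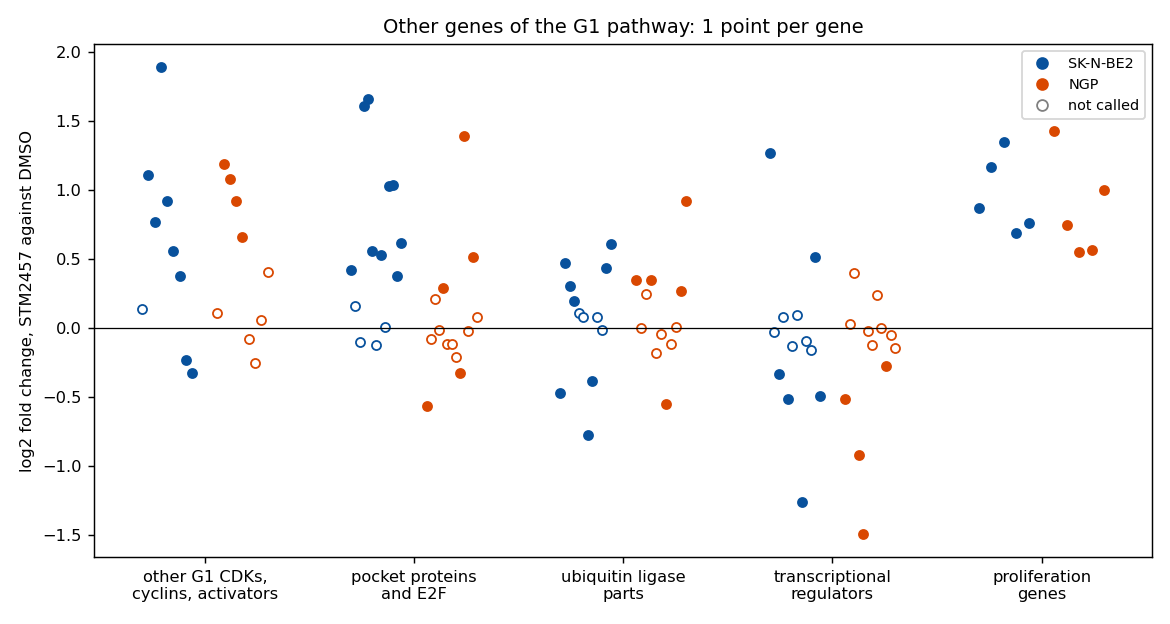
Log2 fold change (STM2457 against DMSO) of each tested gene in the G1 lists, by list and line, filled where the edgeR adjusted p was under 0.05. The pocket protein and E2F list has a median of 0.53 for SK-N-BE2 and -0.02 for NGP, and all 5 proliferation genes lie above 0 in both lines.

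The genes whose pattern lay closest to the 3 inhibitors called alike in both lines were found among 13320 genes, by the root mean square difference of log2(CPM + 1) over the 12 libraries after centring within each line. Closest to CDKN1A were SLC48A1, SLC1A5 and RNF187, at differences of 0.0818, 0.103 and 0.116. For SLC1A5, a glutamine transporter, the log2 fold change in SK-N-BE2 was -1.98 and in NGP -1.46. Closest to CDKN1B were ACBD7, EIF3H and KCTD5, at 0.0581, 0.0586 and 0.0593. Closest to CDKN2C were GCAT, SEMA3F and ACOT7, at 0.139, 0.14 and 0.147. With a pseudocount of 0.1 in place of 1, all 3 genes remained for CDKN1A, 2 for CDKN1B and only 1 for CDKN2C. The 12 libraries share 2 lines and 1 treatment, so any gene with like fold changes lies close on this measure.

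METTL3 acts on short sequence motifs, of which GGACT is the commonest, so its density in the exons was counted on the sense strand. It was 0.984 per kb in CDKN1A, 0.39 in CDKN1B, 1.66 in CDKN2C, 0.42 in CCND1 and 0.517 in CCND3. Across 14731 genes tested the quartiles were 0.622, 0.924 and 1.3 per kb. Of the 10 genes, 8 lay below the median and 6 below the lower quartile, while CDKN2C alone lay above the upper quartile, and CDKN2D had none. CDKN1A and CDKN2C, which moved in opposite directions, were the 2 above the median. Methylation itself was not measured in these libraries.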

How the data were processed

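Polyadenylated RNA of 12 samples was sequenced, and these were grouped by line, treatment and replicate as titled. The authors ran featureCounts 2.0.5, per the file headers, over exons of GENCODE 33 protein-coding genes, without strand and with reads of a pair counted singly; the submitters' processing notes list FastQC 0.11.5, Trimmomatic 0.36, HISAT2 2.1.0 and Subread 1.5.3 on GRCh38, which names another counter version. The deposited values are raw counts. Since mates count singly, 72.1% to 75.4% of counts from 1 to 20 were even.

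Each line was fitted on its 6 libraries with edgeR 4.0.16 (R 4.3.3): filterByExpr (minimum count 10), TMM, the quasi-likelihood test and Benjamini-Hochberg adjustment over all genes tested. Response and baseline differences came from 1 fit of all 12 libraries. Alternatives were DESeq2 1.42.0, its size factors, no filter, a replicate block, halved counts, a joint fit, each library left out and, added after seeing the data, GC offsets in 20 bins. All 10 genes were named. Per list and line, up to 3 called genes of at least 10 CPM, without overlap between groups, were named by size of change. CDK4, CDKN2B, RB1, MDM2 and METTL3 were named regardless, and 1 gene that met the rule is not reported here. Likeness used genes of at least 1 CPM. The genes and lists were chosen with earlier results of these data known. Among the 10 genes, counting error weighs most on CDKN1C and CCND2. Reads were also few for CDKN2C in NGP with DMSO (102, 80 and 121). Exon overlaps, pseudogenes and motifs were read from GENCODE 44 and the GRCh38 genome.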

Additional observations from a re-analysis of the deposited data

Results flagged for a closer look

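The response to STM2457 differed between the lines, by the test of the difference itself (edgeR adjusted p under 0.05), for 5 of the 10 genes. The share over all genes tested was 30.9%. As SK-N-BE2 minus NGP on the log2 scale, the differences were -0.69 for CDKN1A, -4.15 for CDKN1C, -1.03 for CDKN2C, 0.82 for CCND1 and 1.01 for CCND3. The value of CDKN1C rests on 6 and 8 reads in the NGP groups. That gene entered the fit only through its high group, SK-N-BE2 with DMSO, so its place in this count is no support. Line, dose and a possible difference in sequencing run cannot be told apart in these differences.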

How the results depend on the processing

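Of 531 refits of the 10 genes under alternatives, 500 kept their direction and their side of the threshold, 13 lost a call, 12 gained one and 6 reversed, each reversal in a value that was not called. The reversals were CDKN2A in SK-N-BE2 (0.177 without DMSO replicate 3, range -0.416 to 0.177 when 1 library was left out), the response differences of CCND2 (-1.034 without SK-N-BE2 STM2457 replicate 1, range to 3.605) and CDKN1B (0.002 without NGP DMSO replicate 2, range from -0.13), and the CDK6 difference between untreated lines (0.01 without SK-N-BE2 DMSO replicate 3, 0.127 without NGP DMSO replicate 2 and 0.002 with GC offsets, range from -0.316). The count of the 10 genes called in NGP, 4 with all libraries, ran from 2 to 5 when 1 library was left out. It was 2 without DMSO replicate 3, STM2457 replicate 1 or STM2457 replicate 3. Over the same fits the count of all genes called in NGP ran from 3816 to 7897, beside 5671 (41.7%) with all libraries. The swing is thus not particular to the 10 genes.

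Replicate numbers did not pair the samples, with correlations of deviations between -0.239 and 0.154 for equal numbers. With the replicate number as a block the genes called were 7522 in place of 7665 for SK-N-BE2 and 5026 in place of 5671 for NGP. Under that replicate block CDKN1B (edgeR adjusted p 0.0709) and CCND3 (0.0616) lost their NGP calls, CDK6 gained one (0.0418), and CCND2 gained one between the untreated lines (-3.27, edgeR adjusted p 0.0358). CDK6 in NGP was also called with no filter (-0.62, edgeR adjusted p 0.0433), DESeq2 (-0.60, adjusted p 0.0255), the joint fit (-0.59, edgeR adjusted p 0.0234) and GC offsets (-0.64, edgeR adjusted p 0.0106). CDKN2C in SK-N-BE2 was not called in the joint fit (0.39, edgeR adjusted p 0.0707), and the CDKN1C response difference was not called with halved counts (-4.12, edgeR adjusted p 0.0518).

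Shares of reads in place of TPM weight long transcripts more. They gave CDKN1B 51.7% of the inhibitors in SK-N-BE2 with STM2457, 20% in NGP with DMSO and 26.6% in NGP with STM2457 (CDKN2A held 33.7% and 40.8% there), and CCND1 91.7% and 93.7% of the D cyclins with STM2457 in SK-N-BE2 and NGP. CDK6, with its long exons, then held, of CDK4 with CDK6 and with DMSO and STM2457 in turn, 80.6% and 76.6% for SK-N-BE2 against 22.3% and 14.7% for NGP. The overlap of CDK4 with TSPAN31 makes these shares uncertain too. Leaving out 1 library moved the genes called in NGP between 3816 and 7897, in SK-N-BE2 between 6497 and 7849, for the response difference between 3701 and 6274 and between untreated lines between 9941 and 11072. With few reads, CDKN1C in NGP and CCND2 in SK-N-BE2 gave no test.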
